A study of Mus musculus with 6 samples.

Results

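The genes described here are 39 genes known for their expression in astrocytes, the star-shaped glial cells of the brain. They were chosen by name from a fixed list of symbols, matched to Ensembl identifiers through GENCODE M21, an annotation of GRCm38 (also named mm10), and all 39 were found among the 53379 gene identifiers counted in each library. All 39 also passed the filter on low counts, which kept 17221 genes. RNA was sequenced from the cerebral cortex of mice of strain C57BL/6 aged 2 months, as stranded total RNA libraries. The labels give 3 libraries (replicates 5, 6 and 7) as coming from animals of genotype GTF2ird1-/-, in which both copies of Gtf2ird1, a transcription factor gene of the Williams syndrome region, are mutated, and 3 (replicates 1, 3 and 4) from wild type animals. The series title names the material as Gad2+ neurons, the neurons that make GABA. How those cells were isolated, what part of Gtf2ird1 was mutated and whether each library came from its own animal are not stated in the labels. A p-value therefore reflects only how far these libraries spread, which may be technical. Values of single libraries are given below in the order of replicates 5, 6 and 7 and of replicates 1, 3 and 4.

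Astrocytes take up glutamate and potassium released by neurons, convert glutamate to glutamine, ensheathe synapses and blood vessels, and are joined to each other by gap junctions. Many of their genes, such as those for the water channel Aqp4 or the connexin Gjb6, are used by few other cells of the cortex. Others on the list, such as Glul, Cpe, Clu, Ntrk2, Ncan and Id4, are known to be active in further brain cell types as well. To follow the astrocyte share of the RNA, 12 members known for their restriction to astrocytes (Aqp4, Aldh1l1, Slc1a3, Slc1a2, Gja1, Gjb6, Fgfr3, Slc4a4, Slc7a10, Ntsr2, Mlc1 and Hepacam) were combined as a core index, the mean of their log2 CPM. CPM are counts scaled to the size of each library after TMM normalization, a scaling that corrects for differences in composition between libraries.

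Total gene counts lay between 13627501 and 30544144 per library. A count of 0 allows up to 3 counts, or between 0.0982 and 0.22 CPM, and the lowest count of any member in any library was 10. Gtf2ird1, the targeted gene, had 49.6, 40.6 and 48.7 CPM in the libraries labelled Gtf2ird1-/- and 23.3, 31.5 and 52.6 CPM in the wild type libraries, with a log2 fold change of 0.37 ± 0.29 SE (adjusted p 0.703 by edgeR). A count over the whole gene does not check the labels where the mutated part is not known. Microglial markers were the most abundant marker list in every library, and 18 of them summed to 33241, 41513 and 37796 CPM in the libraries labelled Gtf2ird1-/- and 51785, 50107 and 32287 CPM in the wild type libraries. The 11 GABAergic markers summed to 835, 612 and 441 CPM in the libraries labelled Gtf2ird1-/- and 258, 243 and 848 CPM in the wild type libraries, so markers of the labelled cell type were present but far below those of microglia. Reads that the counting assigned to no annotated exon, which can include reads from introns or the opposite strand of a gene, made up 46.8, 51.2 and 50.1% of all reads in the libraries labelled Gtf2ird1-/- and 39.95, 57.6 and 58.2% in the wild type libraries. Ribosomal RNA took 0.163, 6.20 and 0.978% of the gene counts in the libraries labelled Gtf2ird1-/- and 0.0473, 17.5 and 1.51% in the wild type libraries.

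Levels of the astrocyte genes differed widely among the wild type libraries themselves. The geometric mean of the 12 core genes was 196, 81.8 and 117 CPM in the libraries labelled Gtf2ird1-/- and 78.9, 19.5 and 8.85 CPM in the wild type libraries. Wild type replicate 1 thus lay beside the library labelled Gtf2ird1-/- replicate 6, and wild type replicates 3 and 4 lay below all others. The library labelled Gtf2ird1-/- replicate 5 had the highest value of 38 of the 39 members, and wild type replicate 3 or 4 had the lowest value of all 39. Wild type replicate 1 exceeded both other wild type libraries in 38 members and exceeded the library labelled Gtf2ird1-/- replicate 6 in 21. In bulk RNA, fewer astrocytes and less RNA per astrocyte cannot be told apart.

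**Figure D1:**
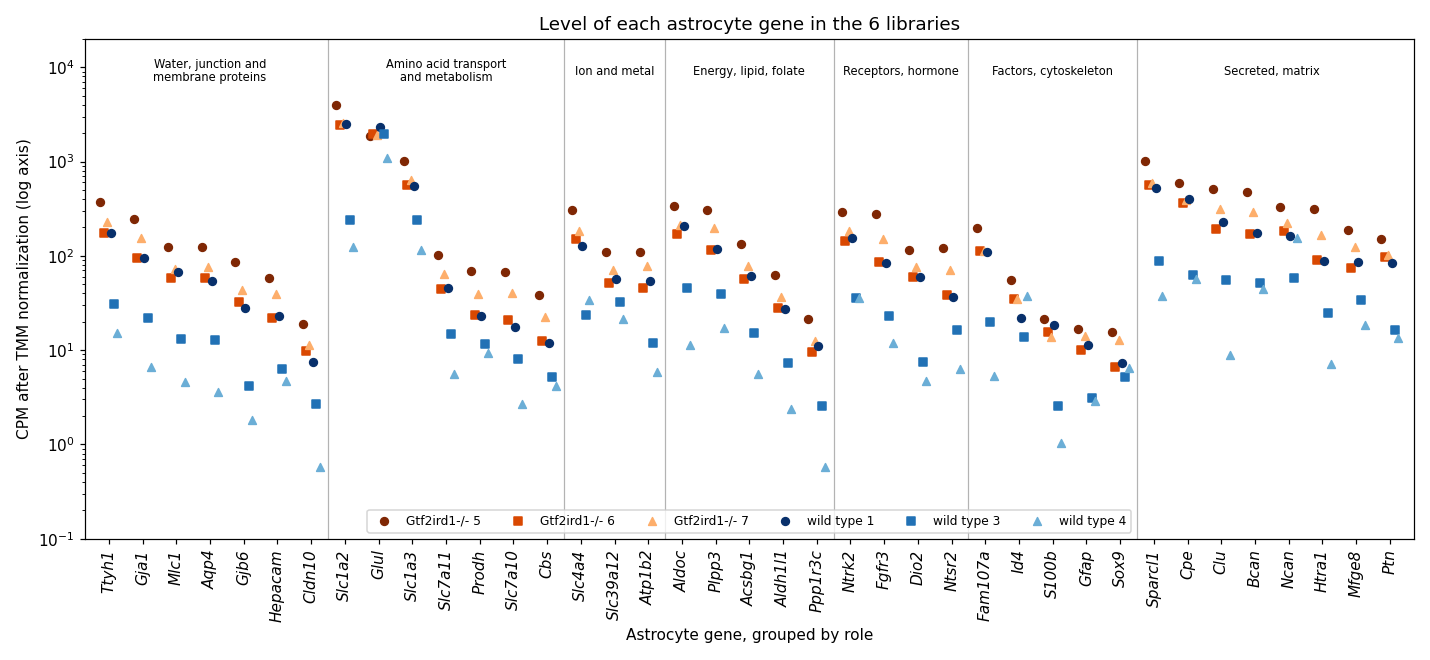
Level of each of the 39 astrocyte genes in CPM after TMM normalization (log axis), 1 point per library, with genes grouped by role. Wild type replicate 1 sits beside the library labelled Gtf2ird1-/- replicate 6 for most genes, while wild type replicates 3 and 4 sit lower for most genes, with Glul in replicate 3 and Id4 in replicate 4 among the exceptions.

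Between the genotypes, all 39 members had positive log2 fold changes (libraries labelled Gtf2ird1-/- over wild type), where 46.3% of all tested genes did. None passed an adjusted p of 0.05 in edgeR's quasi-likelihood test in either direction, where 0.00581% of tested genes passed as higher and 0% as lower. The members' median log2 fold change was 1.67, against -0.03 over all tested genes, and ranged from 0.10 for Glul to 2.25 for Htra1. At an unadjusted p under 0.05 there were 20 members, all higher, where 7.25% of tested genes passed this limit, 4.48% as higher and 2.77% as lower. In 17 members every library labelled Gtf2ird1-/- lay above every wild type library, where 6.34% of tested genes were separated in that direction, and in none the reverse, where 6.68% were. DESeq2 called none of the 36 members for which it gave an adjusted p, against 0.115% of its tested genes called higher and 0.0385% called lower. The members are genes of 1 cell type and are not independent of each other.

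Which wild type libraries entered the comparison decided the calls. Without wild type replicate 1, 22 members passed as higher by edgeR, 9 of the 12 core genes among them, where 1.77% of tested genes passed as higher and 0.0866% as lower. The median log2 fold change of the members was then 3.03. The wild type group then consisted of replicates 3 and 4, which had the largest shares of reads assigned to no annotated exon. Wild type replicate 3 also had the most ribosomal RNA (17.5%) and the largest share of reads counted as ambiguous (14.5%). Its total of gene counts (13627501) and its TMM factor (0.811) were the lowest of the 6 libraries. The part of these technical differences in the result was not tested. No member passed when another library was left out, where the share of tested genes called higher was 0.00585%, 0.00553% and 0.029% without the libraries labelled Gtf2ird1-/- 5, 6 and 7 and 0.00552% and 0.0167% without wild type 3 and 4. No member passed with another filter on low counts either, where 0.013% of genes were called higher and 0.00325% lower with no filter, and 0.00642% were called higher with a minimum of 1 CPM in 3 libraries.

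**Figure D2:**
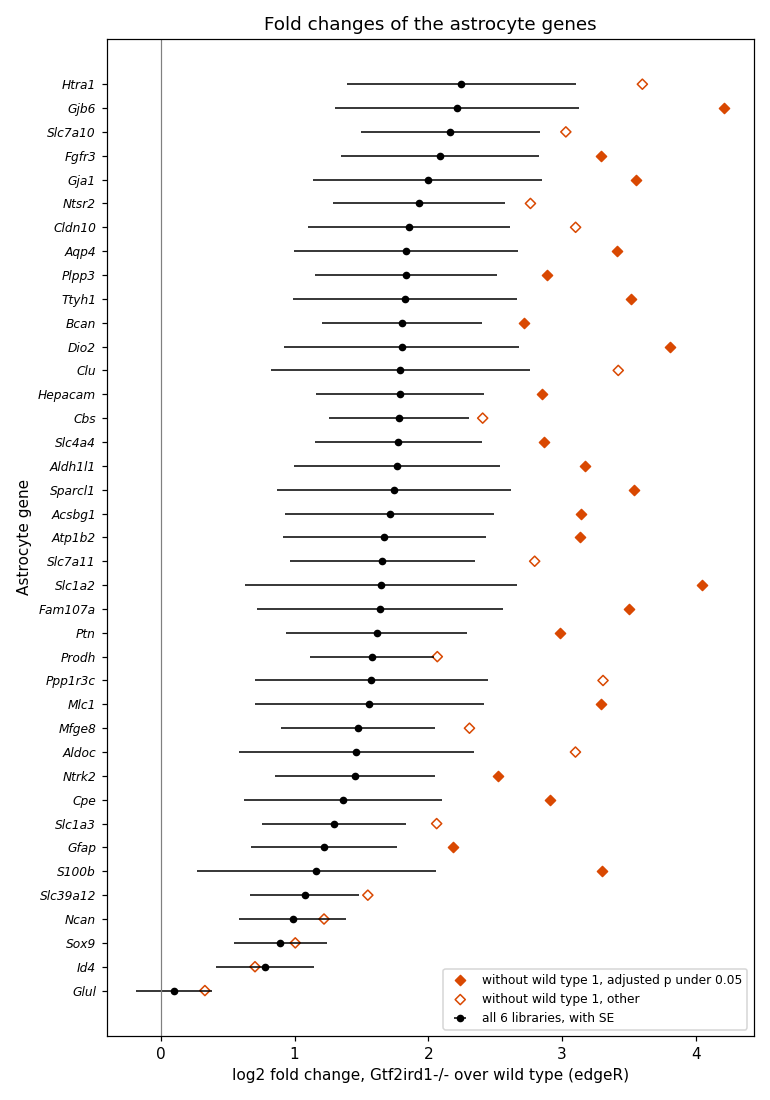
Log2 fold change of each astrocyte gene, libraries labelled Gtf2ird1-/- over wild type, from edgeR. Black points with bars are values over all 6 libraries with their standard error, none of which passed an adjusted p of 0.05, and orange diamonds are values without wild type replicate 1, filled for the 22 genes that passed.

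Among the genes for water channels, junctions and membrane proteins, Aqp4, the water channel of astrocyte endfeet (chromosome 18, 15389496 to 15410982, minus strand), had 123, 57.9 and 76.1 CPM in the libraries labelled Gtf2ird1-/- and 54.7, 12.8 and 3.59 CPM in the wild type libraries. Its log2 fold change was 1.84 ± 0.84 SE (adjusted p 0.637 by edgeR). Gja1 (chromosome 10, 56377330 to 56402513, plus strand), which encodes connexin 43, had 246, 95.7 and 154 CPM in the libraries labelled Gtf2ird1-/- and 94.7, 21.99 and 6.61 CPM in the wild type libraries. All 3 labelled mutant libraries lay above the wild type libraries for both genes, by a small margin for Gja1. Gjb6, which encodes connexin 30, the other main astrocyte connexin, had 85.3, 32.6 and 43.6 CPM in the libraries labelled Gtf2ird1-/- and 27.9, 4.16 and 1.82 CPM in the wild type libraries, and its log2 fold change of 2.22 ± 0.91 SE (adjusted p 0.637 by edgeR) was the largest of this role.

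Mlc1 and Hepacam encode partner membrane proteins of astrocyte junctions, both mutated in a human leukoencephalopathy with cysts. Mlc1 had 124, 58.1 and 71.99 CPM in the libraries labelled Gtf2ird1-/- and 67.9, 13.03 and 4.56 CPM in the wild type libraries. Hepacam had 58.1, 21.7 and 39.2 CPM in the libraries labelled Gtf2ird1-/- and 22.9, 6.33 and 4.73 CPM in the wild type libraries. For both genes the groups overlapped, since wild type replicate 1 exceeded the library labelled Gtf2ird1-/- replicate 6. The count of Hepacam per count of Mlc1 was 0.467, 0.374 and 0.544 in the libraries labelled Gtf2ird1-/- and 0.337, 0.486 and 1.04 in the wild type libraries, so that wild type replicate 4 had the most Hepacam relative to Mlc1. Ttyh1, a chloride channel family member, had 377, 173 and 229 CPM in the libraries labelled Gtf2ird1-/- and 173, 30.5 and 15.1 CPM in the wild type libraries, the same picture of overlap at wild type replicate 1. Cldn10, a claudin, was the lowest of this role, between 0.57 and 18.8 CPM over the 6 libraries.

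The glutamate transporters separated the libraries unequally. Slc1a2 (chromosome 2, 102658659 to 102790784, plus strand), which encodes GLT-1, the main glutamate transporter of the forebrain, had 4014, 2443 and 2546 CPM in the libraries labelled Gtf2ird1-/- and 2511, 240.2 and 124 CPM in the wild type libraries. Slc1a3 (chromosome 15, 8634124 to 8710764, minus strand), which encodes GLAST, had 1022, 559 and 632 CPM in the libraries labelled Gtf2ird1-/- and 548, 238 and 115 CPM in the wild type libraries. Wild type replicates 3 and 4 lay far below the other 4 libraries for Slc1a2 and less far for Slc1a3. The count of Slc1a2 per count of Slc1a3 was 3.93, 4.37 and 4.03 in the libraries labelled Gtf2ird1-/-, against 4.58, 1.01 and 1.07 in the wild type libraries. Wild type replicate 1 had a ratio like that of the labelled mutant libraries, and replicates 3 and 4 had close to equal counts of both transporters. Neither gene passed, with log2 fold changes of 1.65 ± 1.02 SE for Slc1a2 and 1.29 ± 0.54 SE for Slc1a3 (adjusted p 0.661 and 0.637 by edgeR), and Slc1a2 passed without wild type replicate 1 (adjusted p 0.0243 by edgeR).

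Glul, which encodes glutamine synthetase, the enzyme that turns glutamate into glutamine, departed from the other members. It (chromosome 1, 153899944 to 153909723, plus strand) had 1853, 1974 and 1896 CPM in the libraries labelled Gtf2ird1-/- and 2315, 1951 and 1084 CPM in the wild type libraries. The groups overlapped and wild type replicate 1 was the highest library. Its log2 fold change was 0.10 ± 0.28 SE (adjusted p 0.921 by edgeR), the smallest of the 39. The sign depended on wild type replicate 4, since without it the log2 fold change was -0.16. Glul made up 12.96, 23.5 and 19.7% of the summed CPM of all members in the libraries labelled Gtf2ird1-/- and 26.2, 59.9 and 56.1% in the wild type libraries, while Slc1a2 made up 28.1, 29.1 and 26.5% in the libraries labelled Gtf2ird1-/- and 28.4, 7.38 and 6.40% in the wild type libraries. The sum over the members was thus mostly Glul in wild type replicates 3 and 4.

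Of the other amino acid genes, Slc7a10, an exchanger of small neutral amino acids that carries serine and glycine, had 67.02, 21.1 and 40.02 CPM in the libraries labelled Gtf2ird1-/- and 17.5, 8.05 and 2.68 CPM in the wild type libraries. All 3 labelled mutant libraries lay above all wild type libraries, and the log2 fold change was 2.16 ± 0.67 SE (adjusted p 0.637 by edgeR). Slc7a11, the cystine and glutamate exchanger, had a log2 fold change of 1.66 ± 0.69 SE. Prodh and Cbs, which break down proline and condense homocysteine with serine, had log2 fold changes of 1.58 ± 0.46 SE and 1.78 ± 0.53 SE (adjusted p 0.637 by edgeR for both), the smallest unadjusted p-values of the 39 at 0.010 and 0.011. Both had groups that did not overlap, by a small margin. The library labelled Gtf2ird1-/- replicate 6 had 23.5 CPM of Prodh and 12.4 CPM of Cbs, against 22.8 and 11.9 CPM in wild type replicate 1.

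Slc4a4, a sodium bicarbonate cotransporter, had 306, 150.0 and 181 CPM in the libraries labelled Gtf2ird1-/- and 127, 23.8 and 34.3 CPM in the wild type libraries. Unlike most members it was lower in wild type replicate 3 than in replicate 4. Atp1b2, the astrocyte subunit of the sodium pump, had 109, 45.4 and 77.1 CPM in the libraries labelled Gtf2ird1-/- and 53.99, 11.9 and 5.93 CPM in the wild type libraries. Slc39a12, a zinc transporter, had 111, 51.8 and 70.8 CPM in the libraries labelled Gtf2ird1-/- and 57.3, 32.1 and 21.3 CPM in the wild type libraries, a narrower range than Atp1b2. The groups overlapped for Atp1b2 and Slc39a12 and were separated for Slc4a4, with log2 fold changes of 1.67, 1.07 and 1.78, none of which passed.

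In energy, lipid and folate metabolism, Aldh1l1, a folate enzyme used as a general astrocyte marker (chromosome 6, 90486427 to 90600203, plus strand), had 63.3, 27.6 and 36.99 CPM in the libraries labelled Gtf2ird1-/- and 27.3, 7.33 and 2.39 CPM in the wild type libraries. The lowest labelled mutant library exceeded the highest wild type library by a small margin. Acsbg1, an acyl-CoA synthetase, had 135, 56.5 and 78.4 CPM in the libraries labelled Gtf2ird1-/- and 61.1, 15.02 and 5.64 CPM in the wild type libraries, with overlap at wild type replicate 1. Aldoc, the brain form of aldolase, ranged from 11.4 to 340.0 CPM, Plpp3, a lipid phosphate phosphatase, from 17.1 to 307 CPM and Ppp1r3c, a regulator of glycogen synthesis, from 0.57 to 21.4 CPM. All 3 were lowest in wild type replicate 4 and highest in the library labelled Gtf2ird1-/- replicate 5, with log2 fold changes of 1.46, 1.83 and 1.57.

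Of the receptors, Fgfr3, a receptor for fibroblast growth factors, had 275, 85.4 and 149 CPM in the libraries labelled Gtf2ird1-/- and 84.01, 23.2 and 11.8 CPM in the wild type libraries. The lowest labelled mutant library and wild type replicate 1 nearly coincided, and the log2 fold change was 2.09 ± 0.74 SE (adjusted p 0.637 by edgeR). Ntsr2, a receptor for neurotensin, had 120.0, 38.6 and 70.4 CPM in the libraries labelled Gtf2ird1-/- and 36.8, 16.4 and 6.38 CPM in the wild type libraries, separated by a similarly small margin. Ntrk2, the receptor for BDNF, which neurons share, and Dio2, the deiodinase that activates thyroid hormone, had log2 fold changes of 1.45 ± 0.60 SE and 1.80 ± 0.88 SE, with overlapping groups.

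The genes of transcription factors and of the cytoskeleton held Id4 and Sox9, the members with the smallest log2 fold changes after Glul, at 0.78 and 0.89. Sox9, a transcription factor of astrocyte identity, had 15.7, 6.58 and 12.9 CPM in the libraries labelled Gtf2ird1-/- and 7.23, 5.16 and 6.50 CPM in the wild type libraries, with overlapping groups. Id4, an inhibitor of basic helix-loop-helix factors that is also active in neural precursors, had 56.1, 34.8 and 34.6 CPM in the libraries labelled Gtf2ird1-/- and 21.9, 13.8 and 37.2 CPM in the wild type libraries. For Id4, wild type replicate 4 exceeded 2 of the labelled mutant libraries, whereas it was the lowest library for 35 of the 39 members. Gfap, the intermediate filament of astrocytes, was low throughout, at 16.6, 9.93 and 14.3 CPM in the libraries labelled Gtf2ird1-/- and 11.3, 3.08 and 2.91 CPM in the wild type libraries. Its groups overlapped and its log2 fold change was 1.22 ± 0.54 SE (adjusted p 0.637 by edgeR). S100b, a calcium-binding protein gene, and Fam107a, a regulator of actin, ranged from 1.03 to 21.5 CPM and from 5.30 to 199.7 CPM.

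Among secreted and matrix proteins, Ncan, the chondroitin sulfate proteoglycan neurocan, had 333, 184 and 222 CPM in the libraries labelled Gtf2ird1-/- and 161, 57.8 and 153 CPM in the wild type libraries. Wild type replicate 4 stood close to wild type replicate 1 for this gene. Bcan, which encodes the related brevican, had 476, 168 and 293 CPM in the libraries labelled Gtf2ird1-/- and 173, 50.9 and 44.2 CPM in the wild type libraries, with wild type replicates 3 and 4 both low. The count of Bcan per count of Ncan was 1.43, 0.916 and 1.32 in the libraries labelled Gtf2ird1-/- and 1.07, 0.881 and 0.288 in the wild type libraries, lowest in wild type replicate 4. Htra1, a secreted serine protease, had the largest log2 fold change of the members, 2.25 ± 0.86 SE (adjusted p 0.637 by edgeR). Clu, the chaperone clusterin, had the widest range, from 8.95 to 517 CPM or 57.8 times, against 2.14 times for Glul. Sparcl1 (hevin, a synapse-promoting protein), Cpe (carboxypeptidase E), Ptn (pleiotrophin) and Mfge8 (a bridging protein for phagocytosis) had log2 fold changes of 1.75, 1.36, 1.61 and 1.47.

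On a scale per length (CPM per kilobase of annotated exon, mean of the 6 libraries), Glul was the most abundant member at 555, followed by Sparcl1 at 161, Slc1a2 at 151 and Cpe at 119.5. Glul ranked 1 in each of the 6 libraries. The lowest members were Cbs at 2.11, Sox9 at 2.18 and Gfap at 2.29. Wild type replicate 4 changed the order most: Id4 ranked 7 there and between 21 and 32 in the other 5 libraries, Ncan ranked 3 and elsewhere between 12 and 15, and Clu ranked 15 and elsewhere 5 or 6. Sparcl1, Slc1a2 and Cpe differed by less than their spread over libraries.

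Relative to each other most members varied far less than in level, with Id4, Glul, Ncan and Sox9 as exceptions. For each member the ratio of its CPM to the core index was formed in every library, leaving the member itself out of the index. The core index spanned 22.2 times over the 6 libraries and the median member 18.7 times, while the median ratio spanned 2.12 times. In 16 members the highest ratio was at most 2 times the lowest, where 0.633% of all tested genes met this limit and the median gene spanned 22.9 times. These 16 were 7 of the 12 core genes, which enter the index for each other, and 9 of the 27 members outside it. Without wild type replicate 4 the count was 30 of 39. The core index then ran from 196 to 19.5 CPM, against 196 to 8.85 CPM over all libraries. With fewer libraries the limit is easier to meet for any gene. The share of all tested genes within it was not counted there, so the rise is no result about the members.

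Acsbg1 had the narrowest ratio, spanning 1.21 times over libraries in which its own level spanned 23.9 times. Atp1b2 followed at 1.24 times, then Fgfr3 at 1.38, Ttyh1 at 1.40, Plpp3 at 1.41 and Aldh1l1 at 1.42 times. For Acsbg1 the SD of the log2 ratio was 0.11, close to the 0.08 that the counting error of its own reads gives. Just inside the limit lay Htra1 at 1.98 times, and just outside it Aldoc at 2.01 times. The count of Acsbg1 per count of Atp1b2 was 1.24, 1.25 and 1.02 in the libraries labelled Gtf2ird1-/- and 1.13, 1.27 and 0.952 in the wild type libraries. That of Slc7a10 per Slc7a11 was 0.658, 0.475 and 0.627 in the libraries labelled Gtf2ird1-/- and 0.384, 0.539 and 0.484 in the wild type libraries, and that of Gjb6 per Gja1 0.347, 0.341 and 0.283 in the libraries labelled Gtf2ird1-/- and 0.295, 0.189 and 0.276 in the wild type libraries, and the genotypes overlapped in all 3 ratios.

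Id4 had the widest ratio, at 15.13 times, then Glul at 12.97, Ncan at 10.21, Sox9 at 9.20, Slc39a12 at 4.26 and Gfap at 3.90 times. In level, Id4, Glul, Ncan and Sox9 spanned only 4.05, 2.14, 5.77 and 3.04 times, less than in their ratio to the core index. Each of the 6 genes had its highest ratio in wild type replicate 4, as did 15 of the 23 members beyond the limit. In 6 others of the 23, among them Clu and Fam107a, the ratio was lowest in that library. Within the libraries labelled Gtf2ird1-/- alone, 38 of 39 members kept their ratio within 2 times, where 22.6% of tested genes did, and Glul was the exception. Among the wild type libraries 21 members did, where 2.14% of tested genes did. The core index itself spanned 2.40 times in the libraries labelled Gtf2ird1-/- and 8.92 times in the wild type libraries, so the first of these limits was easier to meet.

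**Figure D3:**
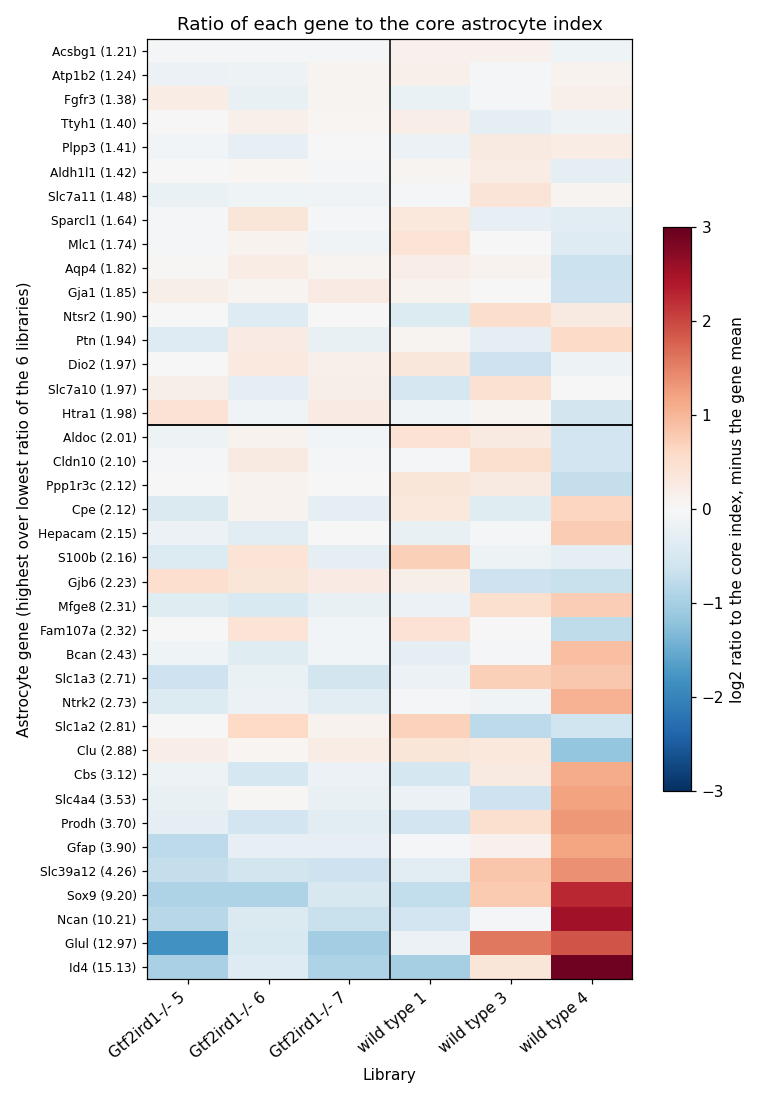
Log2 ratio of each astrocyte gene to the core astrocyte index in each library, minus the gene's mean over libraries (colour), with genes ordered by the highest over the lowest ratio, given in brackets. The horizontal line marks the limit of 2 times, with 16 genes above it, and the strongest colours lie in wild type replicate 4 for Sox9, Ncan, Glul and Id4.

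Marker lists of other cells also differed between libraries. The geometric mean of 14 oligodendrocyte markers was 40.2, 28.00 and 44.8 CPM in the libraries labelled Gtf2ird1-/- and 35.3, 8.37 and 4.31 CPM in the wild type libraries, low in wild type replicates 3 and 4 like the astrocyte core. That of 11 oligodendrocyte precursor markers was 32.2, 24.03 and 16.9 CPM in the libraries labelled Gtf2ird1-/- and 17.9, 0.864 and 8.55 CPM in the wild type libraries, lowest in wild type replicate 3. The 12 pan-neuronal markers had 31.99, 28.4 and 23.4 CPM in the libraries labelled Gtf2ird1-/- and 21.8, 12.4 and 20.7 CPM in the wild type libraries, and the 12 endothelial markers 9.11, 9.62 and 11.1 CPM in the libraries labelled Gtf2ird1-/- and 9.29, 5.96 and 2.83 CPM in the wild type libraries. Wild type replicates 3 and 4 were thus the lowest libraries for the oligodendrocyte, precursor, pan-neuronal and endothelial lists alike. For the pan-neuronal list the margin was small, with 20.7 CPM in wild type replicate 4 and 21.8 CPM in replicate 1. The geometric mean of the 18 microglial markers stayed within 1.58 times. Every marker of these 5 lists was detected and tested. The summed CPM of 10 mural markers was 74.2, 51.03 and 70.7 in the libraries labelled Gtf2ird1-/- and 50.7, 25.6 and 12.7 in the wild type libraries, and that of 7 fibroblast markers 104, 101 and 58.4 in the libraries labelled Gtf2ird1-/- and 72.7, 5.70 and 18.7 in the wild type libraries. The median fibroblast marker had 4.41, 4.49 and 6.11 CPM in the libraries labelled Gtf2ird1-/-. In the wild type libraries it had 4.66, 0.814 and 0.855 CPM. A few of the 7 genes thus carried most of their sum in the libraries labelled Gtf2ird1-/- and in wild type replicates 1 and 4. Pdgfra is on both the fibroblast and the oligodendrocyte precursor list, so these lists are not independent. The mural and fibroblast sums were also lowest in wild type replicates 3 and 4. The part of these marker lists in the levels of the members was not tested.

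**Figure D4:**
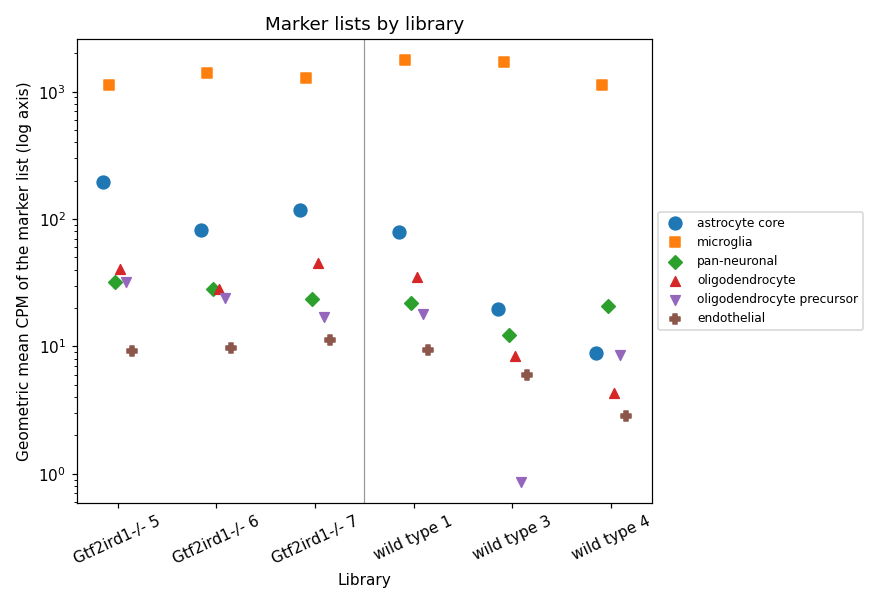
Geometric mean CPM (log axis) of the 12 core astrocyte genes and of marker lists of 5 other cell types, 1 point per library. Wild type replicates 3 and 4 are the lowest libraries for every list shown except the microglial list. The margin is small for the pan-neuronal list in replicate 4, and the microglial list stays near the same level.

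Set against these lists, 24 of the 39 members had their narrowest ratio to the astrocyte core and 10 to the oligodendrocyte list. That list was likewise low in wild type replicates 3 and 4, the lowest libraries for the precursor, pan-neuronal and endothelial lists too. The 24 include every core gene except Slc1a3 and Slc4a4, and core genes enter the index for each other. Slc1a3 and Slc4a4 were nearest to the oligodendrocyte list, at 2.02 and 2.79 times, against 2.71 and 3.53 times for the core. The oligodendrocyte list and the core nearly tied for Ptn (1.94 times for both) and Bcan (2.42 and 2.43 times). Glul was nearest to the microglial list, its ratio spanning 1.69 times there and 12.97 times against the core. The microglial list itself spanned 1.58 times and Glul 2.14 times, and any gene of nearly constant level would lie near that list. Which cells expressed Glul was not tested. Id4, Ncan and Sox9 were nearest to the pan-neuronal list, at 1.79, 2.23 and 2.37 times. Slc39a12 was nearest to the endothelial list, at 2.26 times. That list was low, with a median level of 5.43 CPM. Of its 12 markers, 1 (Slco1c1) itself kept its ratio to the astrocyte core within 2 times, with a span of 1.61 times. These spans describe 6 libraries and carry no test, and the comparison was chosen after the ratios to the core had been seen.

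Of 54 other genes known from astrocytes, listed apart from the members, all 54 were tested, 51 had positive log2 fold changes (51 to 54 over the scalings tried) and none passed by edgeR in either direction. Their median log2 fold change was 1.44, below the members' median, and 24 were higher at an unadjusted p under 0.05, where 4.48% of tested genes were. Daam2, a Wnt pathway gene, had the smallest p, at 137, 40.2 and 89.9 CPM in the libraries labelled Gtf2ird1-/- and 38.4, 16.1 and 12.1 CPM in the wild type libraries. The genes next in order were Hes5, a Notch target, Lhx2, a homeobox factor, F3, the tissue factor of coagulation, and Grin2c, a glutamate receptor subunit, with log2 fold changes of 2.04, 1.30, 2.35 and 2.08 (adjusted p 0.637 by edgeR for all 4). Without wild type replicate 1, 15 of the 54 passed as higher, where 1.77% of tested genes did, and the median of the list was 2.55. In 22 of the 54 the ratio to the core index, to which none of them contributes, stayed within 2 times, where 0.633% of tested genes did. The widest ratios, looked up after the values were seen, were those of Nfib, Pax6, Nfia and Vim, at 39.07, 33.76, 28.96 and 26.66 times. Nfib had 455, 332 and 279 CPM in the libraries labelled Gtf2ird1-/- and 127, 142 and 557 CPM in the wild type libraries, highest in wild type replicate 4.

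Genes known to be raised in reactive astrocytes, the state taken on after injury, had log2 fold changes of both signs. Of 34 listed, 27 were tested, 17 had positive and 10 negative log2 fold changes, the median was 0.21, and none passed by edgeR. The 5 with the smallest p were Amigo2, an adhesion molecule, Serping1, an inhibitor of complement, Clcf1, a cytokine, Fbln5, a matrix protein, and Ggta1, a galactosyltransferase. Their log2 fold changes were 1.68 ± 0.49 SE, 1.26 ± 0.46 SE, -0.44 ± 0.17 SE, 0.88 ± 0.35 SE and -0.37 ± 0.15 SE (adjusted p 0.637 by edgeR for all 5). Lcn2, Steap4 and Timp1, leading genes of that state, were among the 7 that did not pass the filter, with at most 0.547 CPM in any library. Several genes of this list, such as Cd14, H2-D1 and Srgn, are also expressed by microglia. None of the 27 kept its ratio to the astrocyte core within 2 times. Only 0.633% of all tested genes did, so this count does not set the list apart. The median of this list depended on single libraries. Leaving out the library labelled Gtf2ird1-/- replicate 6 gave 0.02, with 15 of 29 tested genes positive. Leaving out wild type replicate 1 gave 0.61 (21 of 27 positive), leaving out replicate 3 gave 0.49 (22 of 30) and leaving out replicate 4 gave -0.03 (15 of 30).

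Among 11547 tested genes outside the member list with a mean of at least 5 CPM, Trpm3, a cation channel gene, had the smallest SD of the log2 ratio to the core index, at 0.07, and its ratio spanned 1.14 times. Its levels were 44.2, 17.5 and 28.2 CPM in the libraries labelled Gtf2ird1-/- and 19.2, 4.52 and 2.05 CPM in the wild type libraries. It was followed by Gpc5 (a glypican), Apln (the peptide apelin), Timp3 (an inhibitor of metalloproteases), Igfbp2 (a binding protein for insulin-like growth factors), Sorcs2 (a sorting receptor), Tril (a Toll-like receptor interactor), Gabrb1 (a GABA-A receptor subunit), Slc6a11 (the GABA transporter GAT-3) and Bmpr1b (a BMP receptor). Their ratios spanned between 1.22 and 1.42 times. Gpc5, Tril and Slc6a11 were on the list of other astrocyte genes. The genes were selected for this likeness, over 6 libraries, so the spans carry no test.

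Since most members varied together, the 250 bases before the annotated start sites of the members were searched for 3 motifs on both strands. The sequences came from RefSeq on GRCm38.p6. Of the 39 members, 33 had an entry, with 39 windows in all. The motif GGATTA (reverse complement TAATCC), which repeats of the Gtf2ird1 protein bind in vitro, was in 2 of these 39 windows (5.13%), those of Aldoc and Slc39a12, against 6.25% of all 32817 windows of the same length. TTGGCA (reverse complement TGCCAA), a half-site of nuclear factor I, was in 6 windows (15.4%), of Aldoc, Fam107a, Hepacam, Ncan and S100b, against 12.3% of all windows, where 2 of the 6 were overlapping windows of Fam107a. None of the motifs contains another. ACAATGG (reverse complement CCATTGT), a motif of Sox factors, was in 0 of the 39 and in 3.02% of all windows. A match is a description of the sequence only. Windows are printed 5′ to 3′ on the strand of the gene, up to the first annotated exon base, for Aldoc, which holds both of the first 2 motifs, for S100b, which holds the half-site near its start, for Acsbg1, with the narrowest ratio to the core, and for Id4, with the widest. Capitals mark GGATTA or TTGGCA on either strand. They lie at chr11:78322823-78322967 (plus strand), chr10:76253586-76253835 (plus strand), chr9:54661886-54662135 (minus strand) and chr13:48260866-48261115 (plus strand).
Aldoc: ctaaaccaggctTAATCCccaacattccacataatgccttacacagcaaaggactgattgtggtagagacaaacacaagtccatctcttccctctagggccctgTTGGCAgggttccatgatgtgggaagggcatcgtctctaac
S100b: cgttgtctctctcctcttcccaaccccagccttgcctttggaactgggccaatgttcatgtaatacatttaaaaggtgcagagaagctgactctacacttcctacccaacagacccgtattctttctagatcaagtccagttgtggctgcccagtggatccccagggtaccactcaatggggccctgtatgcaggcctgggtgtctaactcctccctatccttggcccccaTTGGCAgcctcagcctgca
Acsbg1: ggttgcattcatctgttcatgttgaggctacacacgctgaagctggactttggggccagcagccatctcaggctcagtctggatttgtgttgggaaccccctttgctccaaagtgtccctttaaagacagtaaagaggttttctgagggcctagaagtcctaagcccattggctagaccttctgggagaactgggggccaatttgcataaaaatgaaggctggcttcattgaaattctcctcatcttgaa
Id4: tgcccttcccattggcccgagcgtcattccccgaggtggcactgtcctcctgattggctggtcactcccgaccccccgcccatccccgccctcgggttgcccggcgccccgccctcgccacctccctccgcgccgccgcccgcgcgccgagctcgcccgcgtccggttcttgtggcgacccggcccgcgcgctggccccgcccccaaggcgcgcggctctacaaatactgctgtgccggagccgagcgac
Neither Acsbg1 nor Id4 holds a motif in its window, which says only that these letters are absent there. The GC content of the windows was 48.4% for Acsbg1 and 75.6% for Id4, against a median of 55.2% over the members' windows and 52.4% over all windows.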

How the data were processed

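RNA from 6 cortical libraries, 3 labelled GTF2ird1-/- and 3 wild type, was counted per gene. The authors deposited, for each library, the raw read counts of all genes, neither normalized nor pooled. Per the submitters' processing notes, Trim Galore 0.60, STAR 2.7, HTSeq 1.31 and the build mm10 were used. The annotation release and the strand setting of the counting are not stated in the sources used here. The 5 summary lines of each file stayed out of totals and tests. Of 53379 identifiers, 53274 matched GENCODE M21. In 8 members an exon overlaps another gene, by up to 17.9% of the exon length (Slc7a10 with Lrp3), so their counts can depend on that setting.

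All genes were tested with edgeR 4.0.16 in R 4.3.3 (TMM, default filter by group, robust quasi-likelihood F-test, two-sided, Benjamini-Hochberg adjustment over 17221 genes, threshold 0.05). SE were derived from the F statistic. Log2 ratios used a prior count of 0.5. The fits were tested on simulated data. The outcome is not given here, so it does not tell how often a true difference would be missed. Alternatives were DESeq2 1.42.0, limma-voom (limma 3.58.1), other scalings and filters, and each library left out. Libraries of 1 group differed by chi-square over genes by at least 49.9 per degree of freedom and were counted as separate samples. That difference does not show whether each library came from its own animal. All members are named, and values per library are given for the 12 core genes and for the 4 members with the narrowest and the 6 with the widest ratios. Other lists give the 5 genes of smallest p. Others were named after their values were seen. The members and lists were chosen with earlier results of these data known. Floors cover counting error only, while the SE also include the spread between libraries.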

Additional observations from a re-analysis of the deposited data

How the results depend on the processing

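All 39 members kept a positive log2 fold change under every alternative except Glul without wild type replicate 4 (-0.16, against 0.33 without wild type replicate 1). No member passed as lower under any alternative, and members passed as higher only when wild type replicate 1 was left out (0 to 22 over the libraries left out, and 0 to 15 for the 54 other astrocyte genes). The median of the members lay between 1.23 and 3.03 with 1 library left out. The count of all genes called was 1, with 28 by DESeq2, 5 without a filter on low counts and 1 to 321 with 1 library left out. Scaling by library totals alone moved the median over all tested genes to 0.11, against -0.03 with TMM, and that of the members to 1.82. Of the 39 members, 7 kept their ratio within 1.5 times, against 16 within 2 times. The count within 2 times was 16 to 30 with 1 library left out, 18 with a prior count of 2 and 16 with an index of all members. The matching shares of all tested genes were not counted for these alternatives, and leaving out a library makes the limit easier to meet. Slc1a2, Sparcl1 and S100b had no adjusted p in DESeq2. Where an arm was left with 2 libraries, the spread was pooled over both groups. No paired analysis was possible because the groups share no replicate numbers. The cause of these shifts was not tested. With 3 libraries per group and a core index that spans 8.92 times among wild type libraries, the differences seen in the members were not called.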
